A study of Mus musculus with 12 samples.

Results

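The genes described here encode the proteins of the cytoplasmic ribosome, measured in whole-lung RNA of mice that carry the MMTV-PyMT mammary cancer transgene. Members were chosen by name alone: protein coding genes of the deposited table called Rpl or Rps with a number and at most a suffix a, x, l, l1 or rt, together with Rplp0, Rplp1, Rplp2 and Rpsa, and without the Rps6k kinases. The rule gave 83 of the 56748 genes of the table, 51 of the large subunit and 32 of the small subunit. They lie on 19 chromosomes, with 4 members on the X chromosome (Rpl10, Rpl36a, Rpl39 and Rps4x). No measured value entered the rule, but it was chosen with earlier results of these data known.

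RNA was sequenced in 12 libraries of lung, 4 from each of 3 genotypes, all collected at 4.5 months and all labelled as lung metastasis samples. All 3 groups share MMTV-Cre and MMTV-PyMT: the mouse mammary tumour virus promoter of both transgenes is used to express genes in mammary epithelium. Wild type (WT) animals carry MMTV-Cre and MMTV-PyMT with no further allele named, C3 KO animals carry in addition the C3Tdt allele, and S1pr1 KO animals carry in addition S1pr1fl/fl. C3 encodes the central complement protein and S1pr1 a receptor for sphingosine-1-phosphate, and the series title asks how losing either bears on lung metastasis. The strain label of the WT samples names MMTV-PyMT only, while the design text names MMTV-Cre as well. The labels do not state whether the 4 samples of a genotype are separate animals, and a p-value here measures only the spread among these samples.

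A ribosome is built from ribosomal RNA and a set of proteins, most of them present once per particle, and cells keep the messenger RNAs of these proteins at closely matched levels. Most of these messengers begin with a cytosine and an unbroken run of pyrimidines, the terminal oligopyrimidine (TOP) sequence, through which mTOR and Larp1 set how much of them is translated. The genes have left many processed pseudogenes in the mouse genome, intron-less copies whose sequence matches that of the parent messenger, so short reads can fit several places. In lung, as in other tissues, ribosomal protein messengers are abundant in every cell type, most of all in cells that grow or divide.

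The start sites of 7 members are shown, chosen to include members described below and pyrimidine runs of different lengths, from 4 to 20 bases. Each line gives 60 bases before and 20 from the annotated start, 5′ to 3′ on the gene's own strand, in RefSeq's GRCm38.p6, and the capitals mark the longest run of C or T that overlaps the window from 5 bases before to 10 after the start.
Rpl34, chr3:130730318-130730397, minus strand: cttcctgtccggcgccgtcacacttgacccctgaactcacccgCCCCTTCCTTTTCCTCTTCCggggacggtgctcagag
Rpl35, chr2:39005112-39005191, minus strand: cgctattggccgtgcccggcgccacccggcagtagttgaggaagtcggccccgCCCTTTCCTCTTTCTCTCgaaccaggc
Rpl4, chr9:64173327-64173406, plus strand: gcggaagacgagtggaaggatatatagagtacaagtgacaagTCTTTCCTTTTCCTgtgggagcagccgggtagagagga
Rplp2, chr7:141447591-141447670, plus strand: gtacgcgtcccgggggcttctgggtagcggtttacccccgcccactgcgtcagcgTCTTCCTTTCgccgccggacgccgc
Rps9, chr7:3703981-3704060, plus strand: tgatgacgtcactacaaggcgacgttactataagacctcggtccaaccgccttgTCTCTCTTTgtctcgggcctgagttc
Rplp0, chr5:115559407-115559486, plus strand: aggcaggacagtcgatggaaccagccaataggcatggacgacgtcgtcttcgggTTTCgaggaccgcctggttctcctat
Rpl3l, chr17:24727766-24727845, plus strand: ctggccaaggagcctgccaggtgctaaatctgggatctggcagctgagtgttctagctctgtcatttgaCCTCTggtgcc

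The run was 20 bases in Rpl34, 18 in Rpl35, 14 in Rpl4, 10 in Rplp2 and 9 in Rps9, against 4 in Rplp0 and 5 in Rpl3l. These are the runs at the starts shown: a second annotated start had a run of 6 in Rpl34 and of 4 in Rpl3l. Of the 83 members, 63 had a promoter in the RefSeq table, which holds 250 bases before to 50 after each start, and the table covers 27025 genes. A run of at least 8 pyrimidines overlapping the window from 5 bases before to 10 after the start was present in 26 of the 63 members (41.3%). It was present in 13.0% of all genes. The median longest such run was 7 bases in members and 4 in all genes. Such a run can lie wholly before the annotated start, as those shown for Rpl4 and Rplp0 do. These are therefore not counts of TOP sequences. The motifs below were then counted on both strands from 250 bases before to 50 after each start.

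CTTTCC, a short piece of a pyrimidine run, was present in 34 of the 63 members (54.0%) and 29.3% of all genes. CCGGAAG, the core bound by ETS factors such as GABP, was present in 25 members (39.7%) and 9.93% of all genes. AAGATGGC, the core bound by YY1, was present in 6 members (9.52%) and 3.19% of all genes. GGGCGG, the core bound by SP1, was present in 38 members (60.3%) and 38.2% of all genes. Matches of different motifs overlapped in 2 of the 75 member windows, some genes having several starts. A match is a run of letters and not a measured binding site.

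Levels per length are given in FPKM, read fragments scaled to gene length in kilobases and to library size, as deposited. The members with the highest mean were Rplp1 at 1279 FPKM (1105 to 1456 over the 12 libraries), Rps15 at 747, Rpl36 at 508, Rpl8 at 397 and Rpl41 at 394. Rplp1 is an acidic protein of the stalk, the arm of the large subunit that recruits elongation factors, and Rps15 sits in the head of the small subunit. The lowest were Rpl10l at 0, Rpl39l at 0.143, Rpl3l at 0.542, Rpl24 at 1.04 and Rps10 at 2.01 FPKM. Rpl10l, Rpl39l and Rpl3l are paralogues known from other tissues, whereas Rpl24 and Rps10 encode constitutive subunits of every ribosome. In the Rpl24 transcript 81.7% of the 50-base stretches, and in that of Rps10 56.8%, also occurred in transcripts of other genes. The median over members was 48.1%, and Rpl35, with 95.1% shared, had a mean of 132 FPKM. For Rps10, 2 pseudogene rows held 75 to 95.1 CPM against 2.69 to 6.27 for the gene itself. The part of shared sequence in the low levels of Rpl24 and Rps10 was not tested. CPM here means read counts scaled to the TMM-adjusted library total.

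**Figure D1:**
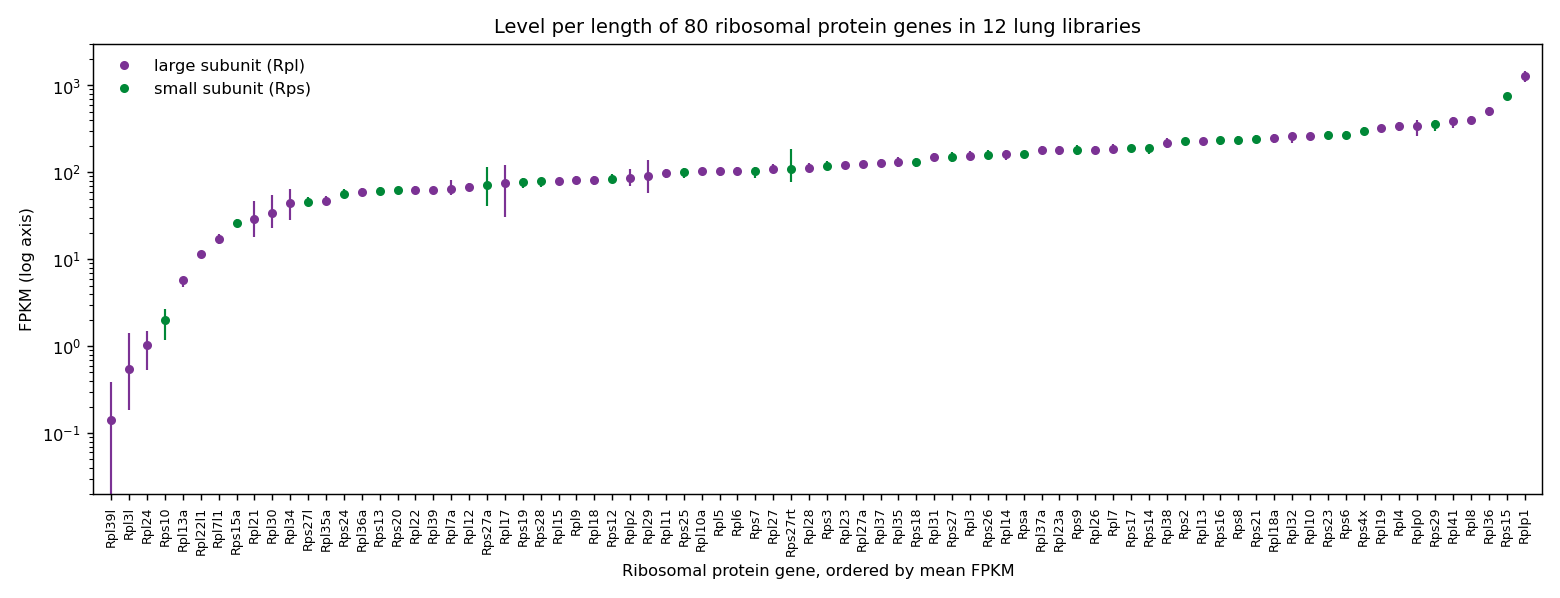
FPKM on a log axis for 80 ribosomal protein genes ordered by mean level; points are means over 12 libraries, vertical lines run from the lowest to the highest library, and colour separates the large and small subunit. Rpl10l, at 0 everywhere, is not drawn, and the line of Rpl39l reaches 0 and leaves the axis. The order runs from 0.143 FPKM for Rpl39l to 1279 for Rplp1, and long lines mark Rpl17, Rps27a, Rpl29 and a few others.

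Across the 12 libraries most members varied little. Of the 83, 74 had a mean of at least 50 CPM, and the median ratio of their highest to their lowest library was 1.26. That ratio was under 1.4 in 65 of the 74 (87.8%), against 65.1% of the 4817 genes of the table with such a mean, whose median ratio was 1.31. Rpsa, which encodes a small subunit protein also known as the laminin receptor, went from 481 to 554 CPM, a ratio of 1.15. The widest ranges among members with a mean of at least 1 CPM were those of Rpl17 (40.4 to 160 CPM), Rpl24 (0.549 to 1.57), Rps27a (81.1 to 224), Rpl21 (61.3 to 162) and Rps27rt (28.7 to 69.6). Rpl24 had only 29 to 55 counts per library, so its range is less precise than those of the others named here.

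The paralogues compared here lay below their common partners or had no count. Rpl10l, the testis counterpart of Rpl10, had no count in any library, which over the 458612764 counts of the 12 libraries allows at most 0.00654 CPM (3 counts; counting error only), whereas Rpl10 had 493 to 591 CPM. Rpl39l, the counterpart of Rpl39 that is best known from male germ cells, had 0 to 11 counts per library and did not pass the filter on low counts. Germ cell markers summed to 0.606 to 1.14 CPM over 8 genes, with Tnp1 at 0 in every library. Rpl22l1 had 10.7 to 12.3 FPKM against 56.8 to 69.4 for Rpl22, and Rpl7l1 had 15.1 to 19.4 FPKM against 167 to 213 for Rpl7. Rps27l, a p53 target that resembles Rps27, had 42.3 to 51.9 FPKM against 131 to 174 for Rps27. Rps4l is listed in the table as a transcribed processed pseudogene, so it is no member; it had 18.3 to 32.9 CPM against 446 to 545 CPM for Rps4x.

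Rpl3l, which replaces Rpl3 in striated muscle, was at 0.866, 2.33, 0.381 and 0.302 CPM in WT 1 to 4, at 1.13, 0.849, 0.805 and 0.691 CPM in C3 KO 1 to 4, and at 0.530, 1.49, 0.930 and 0.416 CPM in S1pr1 KO 1 to 4. The highest libraries were WT 2 and the library labelled S1pr1 KO 2, and the 3 groups overlapped. The same 2 libraries stood apart for skeletal muscle: 12 markers (Acta1, Myh4, Ckm and others) summed to 271 CPM in WT 2 and 189 CPM in the library labelled S1pr1 KO 2, and to 13.0 to 22.1 CPM in the other libraries. The 11 cardiac markers summed to 3269 CPM in the library labelled S1pr1 KO 2, to 813 to 1528 CPM in the other S1pr1 KO libraries, to 427 to 832 CPM in C3 KO and to 173 to 670 CPM in WT. Rpl3l had a log2 difference of -0.16 (SE 0.58, edgeR adjusted p = 0.951) in C3 KO against WT and -0.21 (SE 0.58, edgeR adjusted p = 0.896) in S1pr1 KO against WT. With 11 to 85 counts per library, its level is less precise than that of the other members tested, and the part of muscle RNA in it was not tested.

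**Figure D2:**
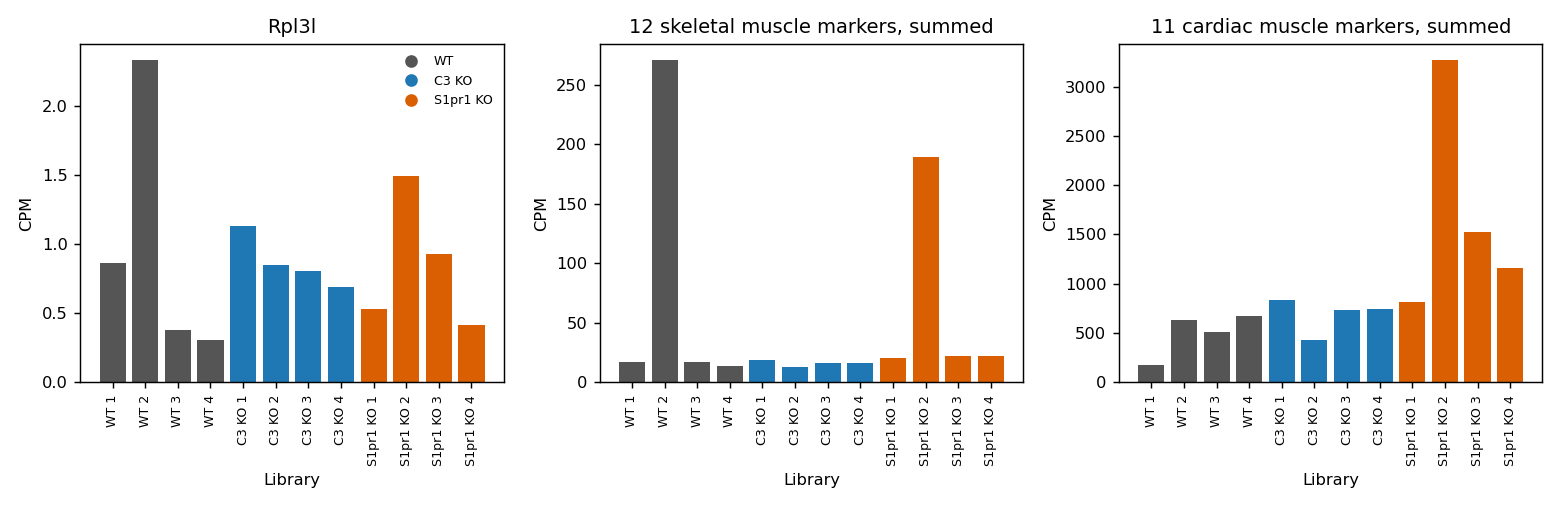
CPM of Rpl3l, of 12 skeletal muscle markers summed and of 11 cardiac muscle markers summed, 1 bar per library, coloured by genotype, each panel with its own axis from 0. Rpl3l is highest in WT 2 (2.33 CPM) and next in the library labelled S1pr1 KO 2 (1.49 CPM), whose skeletal muscle sums (271 and 189 CPM) also exceed all others.

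Depth ranged from 32274797 to 53063470 counts per library, and markers of lung were present in each, the 8 genes of alveolar type 2 cells summing to 22550 to 33785 CPM. The targeted genes went against the label in 2 libraries: the library labelled C3 KO 4 had 1416 CPM of C3 (WT 787 to 1024, C3 KO 1 to 3 465 to 601), and the library labelled S1pr1 KO 2 had 366 CPM of S1pr1 (WT 295 to 491, S1pr1 KO 1, 3 and 4 132 to 154). Directions below include both libraries as labelled, with values without them where they differ. Marker sums of 3 cell types lay higher in every S1pr1 KO library than in every WT library: 11 NK and cytotoxic genes (103 to 130 CPM against 37.6 to 87.1, with 2 genes that rose), 12 ciliated cell genes (534 to 717 against 285 to 457, with 3 that rose) and the cardiac markers above, with 2 that rose. T cell genes overlapped, 12 of them summing to 24.9 to 59.3 CPM in S1pr1 KO, 56.6 to 95.8 in WT and 66.5 to 101 in C3 KO, with 2 that fell in S1pr1 KO against WT. So did 11 B cell genes, at 136 to 381, 293 to 562 and 401 to 448 CPM, with 0 called. No marker of these 5 lists passed in C3 KO against WT, and the part of other cell types in the members' values was not tested. In bulk RNA, fewer cells of a type and less RNA per cell cannot be told apart.

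The members took 2.27%, 2.23%, 2.27% and 2.32% of all counts in WT 1 to 4 (mean 2.27% ± 0.0353, SD, n = 4). The share was 2.15%, 1.94%, 2.04% and 2.18% in C3 KO 1 to 4 (2.08% ± 0.106) and 2.24%, 2.01%, 2.24% and 2.21% in S1pr1 KO 1 to 4 (2.18% ± 0.110). Counting error was far smaller, the 95% Wilson interval of each share reaching at most 0.00507 percentage points to either side. All C3 KO libraries lay below all WT libraries, while S1pr1 KO overlapped WT. That overlap depended on the rows counted. With the pseudogene copies described below, S1pr1 KO had 2.17% to 2.42% and WT 2.45% to 2.55%, without overlap. With pseudogene rows named Rpl or Rps instead, they still overlapped (2.14% to 2.38% and 2.37% to 2.47%). The lowest shares were those of C3 KO 2 and of the library labelled S1pr1 KO 2. The share in C3 KO was 0.914 times that in WT and the share in S1pr1 KO 0.958 times. No p is given for a share, since the members were chosen with results known.

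The same order showed gene by gene. Taking each of the 81 tested members relative to its WT mean, the median log2 value was -0.11, -0.24, -0.17 and -0.089 in C3 KO 1 to 4 and -0.059, -0.19, -0.096 and -0.13 in S1pr1 KO 1 to 4, against -0.015, -0.032, 0.025 and 0.025 in WT 1 to 4. Of the 81, 43 had their lowest level in C3 KO 2 and 15 in the library labelled S1pr1 KO 2, and 25 and 26 had their highest in WT 3 and WT 4. C3 KO 2 had 34131299 counts, 93.4 CPM of T cell markers and 161 CPM of proliferation markers, for which the other C3 KO libraries had 125 to 152 CPM.

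**Figure D3:**
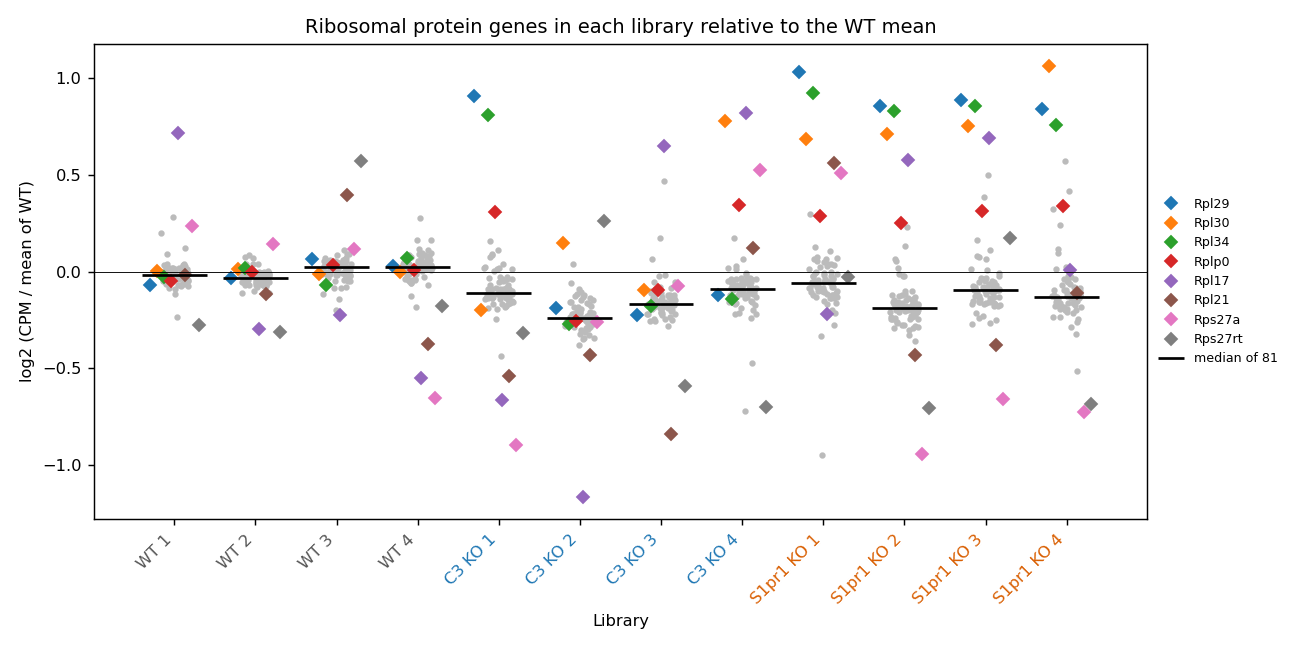
log2 of CPM over the WT mean for 78 of the 81 tested ribosomal protein genes (Rpl3l is among those left out of the points), 1 column per library; grey points are genes, black bars the median of all 81, and coloured diamonds 8 genes that vary most or share sequence with pseudogenes. Grey points of C3 KO 2 centre on -0.24, whereas Rpl29, Rpl34 and Rpl30 lie above 0.6 in S1pr1 KO libraries.

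In C3 KO against WT edgeR called no member, while nearly all were slightly lower. Of 81 tested, 73 had a log2 fold change below 0, with a median of -0.15 and quartiles of -0.17 and -0.10, against 50.2% below 0 and a median of -0.00099 over the 20229 genes tested. The medians of the large and small subunit were alike, -0.15 over 49 members and -0.14 over 32. At an edgeR adjusted p (quasi-likelihood test, Benjamini-Hochberg over all genes) under 0.05, 0 of 81 members were called, with 0.00989% of all genes called (0.00494% higher and 0.00494% lower). DESeq2 called 7 members among 155 genes called in all, and limma voom 0 among 21. At an unadjusted p under 0.05 there were 46 members, all of them lower, where 11% of all genes passed in either direction and 5.09% lower.

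In 41 of the 81 members (50.6%) all C3 KO libraries lay below all WT libraries, which held for 3.09% of all genes, and in 0 members did they lie above, against 3.0% of all genes. Rpl35, a protein next to the tunnel through which the new peptide leaves, had the lowest p. Its level was 175, 179, 185 and 183 CPM in WT and 162, 142, 155 and 155 CPM in C3 KO, so the groups did not overlap. Its log2 fold change was -0.23 (SE 0.054, edgeR adjusted p = 0.253).

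Other members of low p were also of the large subunit. Rpl9 was at 264 to 281 CPM in WT and 227 to 246 in C3 KO (log2 -0.17, edgeR adjusted p = 0.296), Rpl6 at 339 to 364 and 299 to 321 (-0.18, 0.298) and Rpl8 at 575 to 609 and 496 to 540 (-0.18, 0.298). All 3 separated the groups. The 8 members above 0 were Rpl30, Rplp0, Rpl29, Rpl34, Rps27l, Rpl17, Rps2 and Rps7, the highest being Rpl30 at 0.21 (SE 0.17, edgeR adjusted p = 0.706). Of 12 members whose loss is known from Diamond-Blackfan anaemia, such as Rps19, Rpl5 and Rpl11, 11 were below 0, a share like that of all members (73 of 81). Red cell markers in C3 KO ranged from 1275 CPM in the library labelled C3 KO 4 to 24739 CPM in C3 KO 3, and their part in these values was not tested. Leaving out both libraries whose targeted gene went against the label gave 0 called and a median of -0.16.

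**Figure D4:**
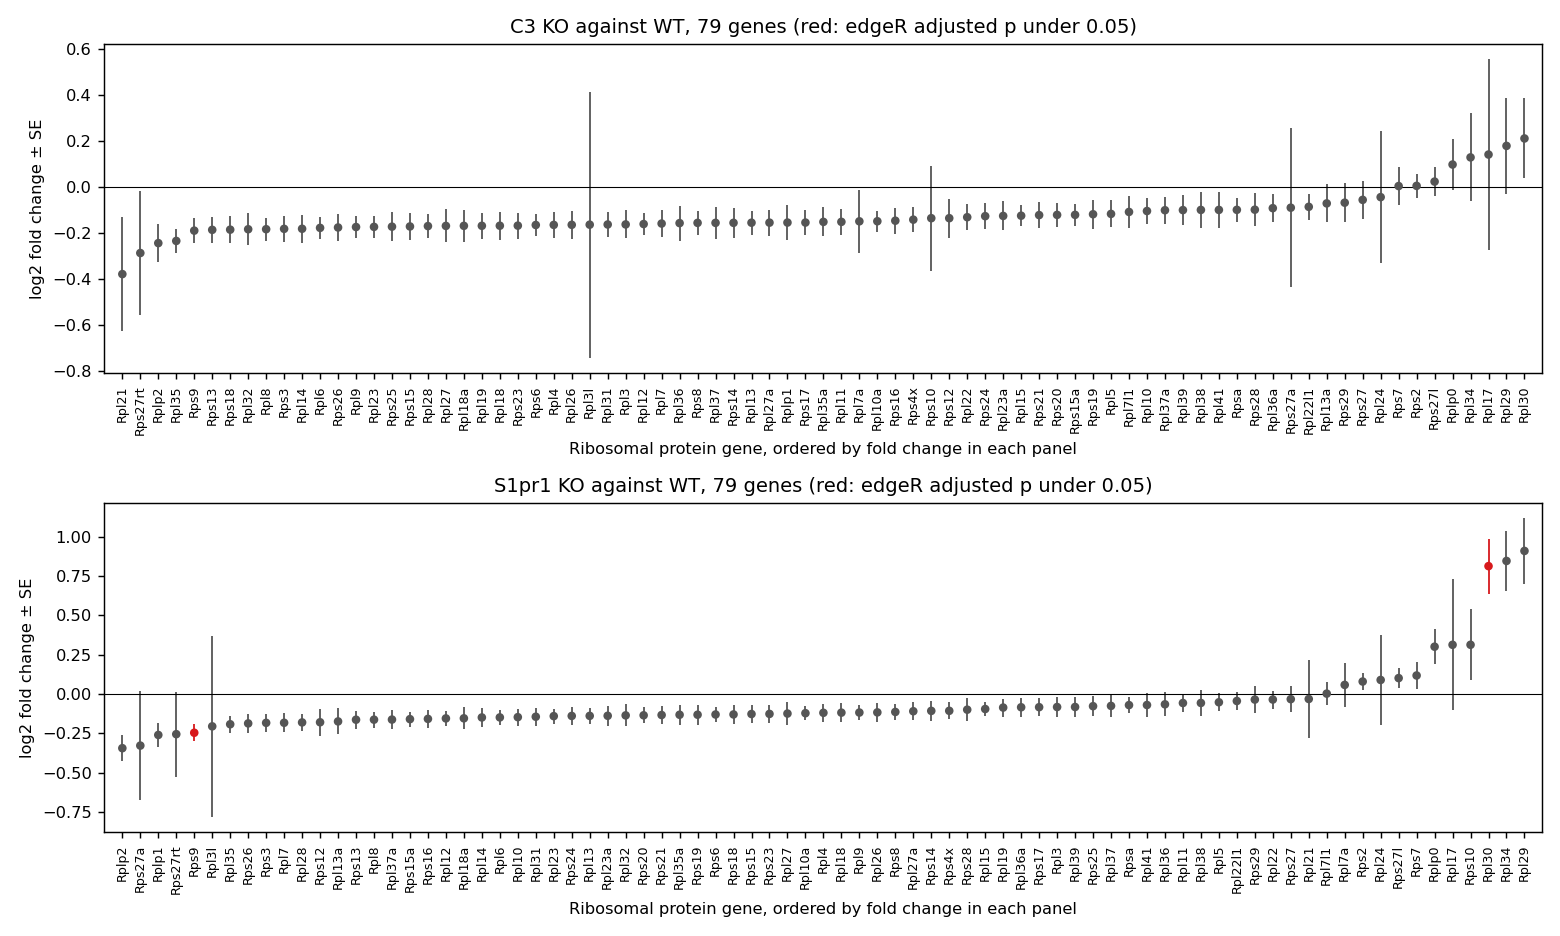
log2 fold change with its SE for 79 ribosomal protein genes in C3 KO against WT (upper panel) and S1pr1 KO against WT (lower panel), genes ordered by fold change within each panel; red marks an edgeR adjusted p under 0.05. Most points lie a little below 0, the medians being -0.15 and -0.12, over all 81 members tested, and the red points are Rps9 and Rpl30 in the lower panel.

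In S1pr1 KO against WT, which uses the same WT libraries, Rps9 fell and Rpl30 rose. In all, 3 of 81 members were called, 2 lower and 1 higher, with 1.35% of all genes called (0.821% higher and 0.534% lower). DESeq2 called 19 members among 1224 genes called in all, and limma voom 7 among 928. When single libraries were left out, edgeR called 0 to 6 members and 2 to 571 genes in all. The value of Rpl30 turned to -0.029 (edgeR adjusted p = 0.830) once the counts of its pseudogene copies, described below, were added. The rest again leaned low: 69 of 81 were below 0 and 12 above, with a median of -0.12 (all genes 50.2% below 0, median -0.0011). The 36 members whose S1pr1 KO libraries all lay below WT (44.4%) compare with 5.18% of all genes, and the 6 that all lay above compare with 6.16%. At an unadjusted p under 0.05 there were 38 members, 34 of them lower, where 18% of all genes passed and 8.11% were lower.

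Rps9 (ENSMUSG00000006333) lies on chromosome 7 from 3706992 to 3709896 (GRCm39, as in the deposited table). Rps9, which helps keep decoding accurate in the small subunit, was at 521, 498, 503 and 515 CPM in WT and at 443, 415, 451 and 407 CPM in S1pr1 KO. The groups did not overlap, with -0.25 (SE 0.053, edgeR adjusted p = 0.0462). In C3 KO, Rps9 was at 453, 434, 469 and 431 CPM, with -0.19 against WT (edgeR adjusted p = 0.305), and the difference between both knockouts was -0.058 (SE 0.053, edgeR adjusted p = 0.706).

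The call of Rps9 sat close to the threshold. Rps9 no longer passed without any single WT or S1pr1 KO library, the library labelled S1pr1 KO 2 included, or without C3 KO 1 or 2 (edgeR adjusted p from 0.0535 to 0.148). Its value stayed between -0.27 and -0.22 in each case. Without both libraries whose targeted gene went against the label the adjusted p was 0.0607.

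Rplp2, a protein of the stalk, was at 225, 198, 207 and 197 CPM in WT and at 171, 162, 174 and 145 CPM in S1pr1 KO, with no overlap, and -0.35 on the log2 scale (SE 0.083, edgeR adjusted p = 0.0619). Rplp1, its dimer partner, was at 671, 693, 719 and 729 CPM in WT and at 626, 560, 585 and 576 CPM in S1pr1 KO, also with no overlap (-0.26, SE 0.077, edgeR adjusted p = 0.101). Rplp0, which anchors both to the ribosome, was at 506, 523, 537 and 527 CPM in WT and at 639, 623, 651 and 662 CPM in S1pr1 KO (0.30, SE 0.11, edgeR adjusted p = 0.183). None of these 3 passed the threshold. With copies added, Rplp0 was at -0.093 (edgeR adjusted p = 0.423), below 0 like Rplp1 (-0.26) and Rplp2 (-0.35). Rpsa had -0.071 (SE 0.051, edgeR adjusted p = 0.508).

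Rpl30, Rpl34 and Rpl29 had the largest positive values, and each took 1 of 2 levels. They lie on different chromosomes: Rpl30 (ENSMUSG00000058600) on 15 from 34440651 to 34443786, Rpl34 (ENSMUSG00000062006) on 3 from 130520480 to 130524047 and Rpl29 (ENSMUSG00000048758) on 9 from 106306653 to 106308767, all in GRCm39. Rpl30 was at 80.1, 80.5, 79.0 and 79.6 CPM in WT, at 69.5, 88.5, 74.7 and 137 CPM in C3 KO 1 to 4, and at 128, 131, 134 and 167 CPM in S1pr1 KO. The upper level thus held all S1pr1 KO libraries and the library labelled C3 KO 4, and nothing lay between 88.5 and 128 CPM. Its log2 fold change in S1pr1 KO against WT was 0.81 (SE 0.17, edgeR adjusted p = 0.0462). It did not pass without any single WT or S1pr1 KO library, the library labelled S1pr1 KO 2 included, or without C3 KO 2 (0.0591 to 0.143), and it was -0.029 with copies added.

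Rpl34 was at 89.3, 92.4, 86.9 and 95.7 CPM in WT, at 160, 75.6, 80.5 and 82.6 CPM in C3 KO 1 to 4, and at 173, 162, 165 and 154 CPM in S1pr1 KO. Rpl29 was at 73.0, 75, 80.1 and 78.3 CPM in WT, at 144, 67.2, 65.4 and 70.6 CPM in C3 KO 1 to 4, and at 157, 139, 142 and 137 CPM in S1pr1 KO. For both the upper level held all S1pr1 KO libraries and C3 KO 1, another C3 KO library than for Rpl30. In S1pr1 KO against WT, Rpl34 had 0.85 (SE 0.19, edgeR adjusted p = 0.0535) and Rpl29 0.91 (SE 0.21, edgeR adjusted p = 0.0549). Both passed without C3 KO 1 (3.21e-05 each). Without the library labelled C3 KO 4 they were at 0.0416 and 0.0421, and without C3 KO 3 Rpl29 was at 0.0483.

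Rplp0 held its upper level, 623 to 665 CPM, in C3 KO 1, in the library labelled C3 KO 4 and in all S1pr1 KO libraries, and 439 to 537 CPM elsewhere. Rps7, chosen after its values were seen, was at 229 and 232 CPM in the same 2 C3 KO libraries, at 176 and 187 CPM in C3 KO 2 and 3, at 213 to 230 CPM in S1pr1 KO and at 196 to 213 CPM in WT. Rps2, chosen in the same way, was at 395 to 425 CPM in WT and 428 to 438 CPM in S1pr1 KO. These are the other members whose S1pr1 KO libraries all lay above WT. With copies added, Rps7 was at -0.12 (edgeR adjusted p = 0.257) and Rps2 at 0.047 (0.680) in S1pr1 KO against WT.

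Some pseudogene rows of the same members were low in the libraries in which the member was high, and others were high there. Pseudogenes were taken as copies where at least 10% of the 50-base stretches of the member's transcript occur in them, a definition made after seeing the data, which gave 405 copies of 69 members. Over the whole set, 79 of 83 members had at least 1 stretch that occurs in another gene's transcript, with a median of 48.1% of stretches shared, and members such as Rpl3l, Rpl11 and Rpl39l had none.

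Gm8730, a processed pseudogene on chromosome 8 (103591477 to 103592430, GRCm39) that holds 27.3% of the stretches of Rplp0, was measured at 139, 144, 139 and 146 CPM in WT. C3 KO 1 to 4 had 5.75, 116, 136 and 3.86 CPM, and S1pr1 KO 1 to 4 had 4.49, 4.17, 3.77 and 5.82 CPM. The low libraries were those in which Rplp0 was high. The log2 fold change in S1pr1 KO against WT was -4.96 (SE 0.97, edgeR adjusted p = 0.0358). Gm9625 on chromosome 13, another copy of Rplp0, went from 25.5 to 27.2 CPM in WT to 0.472 to 1.01 CPM in S1pr1 KO (-5.03, SE 1.00, edgeR adjusted p = 0.0385). Rplp0 and its 3 copies summed to 672 to 702 CPM in WT, 577 to 669 in C3 KO and 628 to 669 in S1pr1 KO.

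Rpl34-ps1 on chromosome 6 was at 95.6 to 109 CPM in WT and 22.3 to 26.1 CPM in S1pr1 KO, and at 27.6, 93.4, 87.2 and 94.6 CPM in C3 KO 1 to 4, low where Rpl34 was high (S1pr1 KO against WT -2.07, SE 0.29, edgeR adjusted p = 0.0145). Gm12191 on chromosome 11, a copy of Rpl30, was at 73.2 to 85.4 CPM in WT, at 72.1, 58.0, 66.6 and 13.0 CPM in C3 KO 1 to 4 and at 4.33 to 16.6 CPM in S1pr1 KO (-2.66, SE 0.47, edgeR adjusted p = 0.0295). Gm8210 on chromosome 1, a copy of Rpl29, was at 8.75 to 10.9 CPM in WT, 0.636 CPM in C3 KO 1 and 0.265 to 0.522 CPM in S1pr1 KO (-4.81, SE 0.65, edgeR adjusted p = 0.0145). Another copy of Rpl29, Gm10709, was higher where Rpl29 was, at 5.79 to 7.26 CPM in WT and 11.9 to 15.3 CPM in S1pr1 KO (1.06, SE 0.22, edgeR adjusted p = 0.0421). Rpl30-ps10 on chromosome X, which holds 50% of the stretches of Rpl30, was likewise higher in most libraries with high Rpl30, at 6.01 to 7.24 CPM in WT, 11 CPM in the library labelled C3 KO 4 and 11.2 to 11.3 CPM in S1pr1 KO 1 to 3, but at 2.79 CPM in S1pr1 KO 4 (0.49, SE 0.47, edgeR adjusted p = 0.639). The pseudogenes were chosen after their values were seen, and where the reads of a shared stretch come from cannot be read from these tables.

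**Figure D5:**
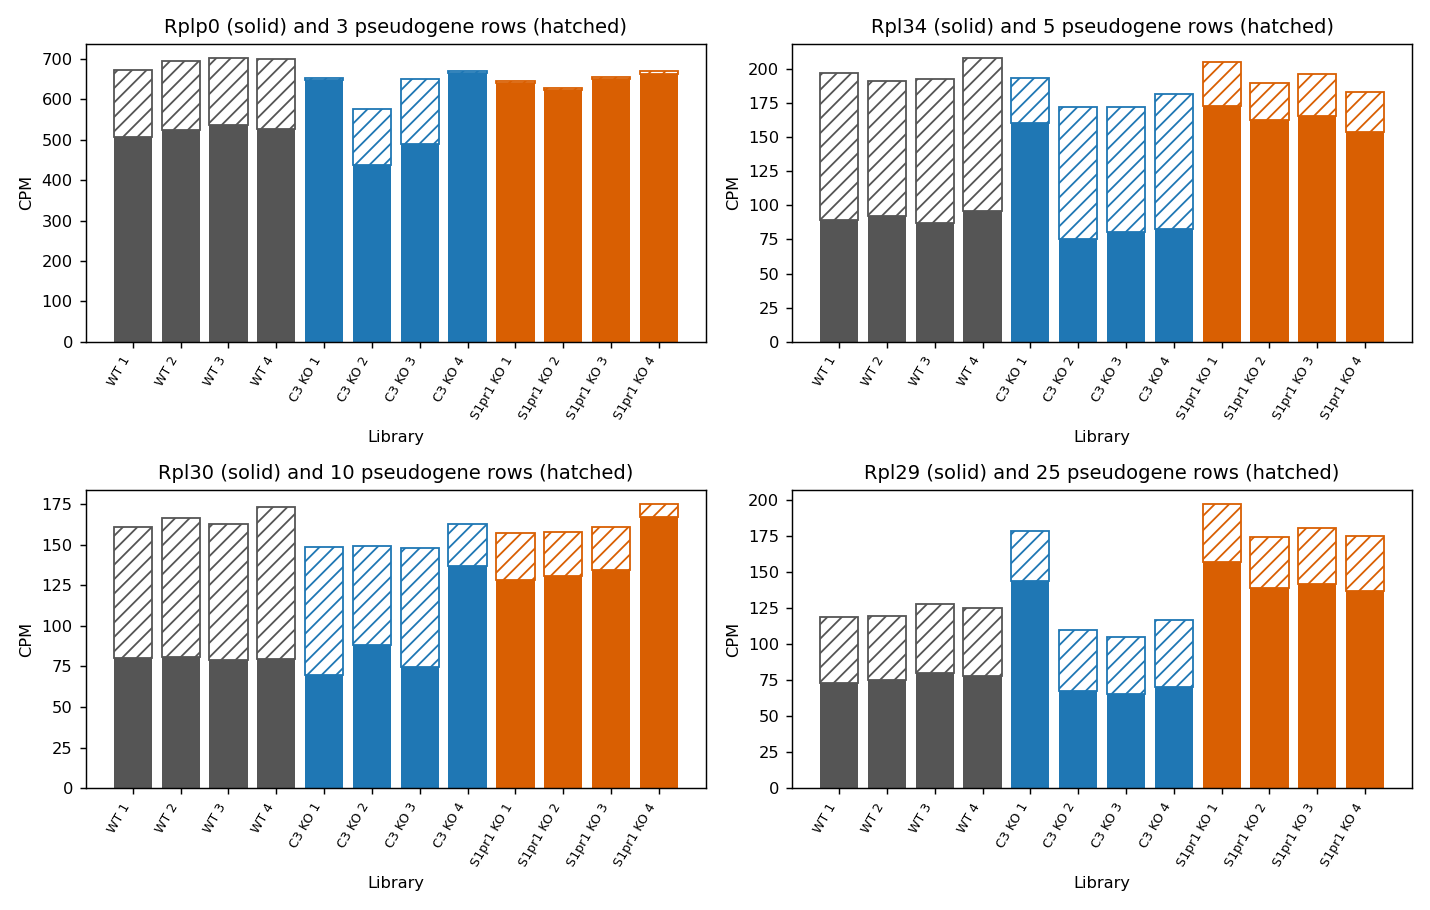
CPM of Rplp0, Rpl34, Rpl30 and Rpl29 (solid) with their pseudogene rows stacked on top (hatched), 1 bar per library and 1 colour per genotype, each panel with its own axis from 0. Solid parts of Rpl34 and Rpl30 differ up to 2.29-fold and 2.40-fold between libraries while the full bars differ up to 1.21-fold and 1.18-fold; for Rpl29 the full bars still differ 1.87-fold.

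Adding the copies narrowed these ranges. The ratio of highest to lowest library went from 2.40 to 1.18 for Rpl30, from 2.29 to 1.21 for Rpl34, from 1.52 to 1.22 for Rplp0, from 3.97 to 1.32 for Rpl17 and from 2.33 to 1.22 for Rps10. It went from 2.40 to 1.87 for Rpl29, from 2.64 to 1.63 for Rpl21 and from 2.77 to 2.51 for Rps27a, where a difference between libraries remained. Among the 69 members with copies and values above 0, 11 had a ratio over 1.4 alone and 5 with their copies.

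The fit on summed counts called 2 members in S1pr1 KO against WT, Rps9 among them (-0.25, edgeR adjusted p = 0.0474). Beside Rpl30, the value of Rpl34 turned to -0.030 (edgeR adjusted p = 0.835) and that of Rplp0 to -0.093 (0.423). Rps7 (-0.12), Rps10 (-0.18), Rpl17 (-0.22) and Rpl7a (-0.057) also turned below 0. Rpl29 kept 0.56 (SE 0.14, edgeR adjusted p = 0.0653). Members above 0 numbered 5 instead of 12, namely Rpl29, Rps27l, Rps2, Rpl24 and Rpl7l1, and the median was -0.13. In C3 KO against WT, 2 members stayed above 0, Rpl29 and Rps27l, and the median was -0.16.

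Rpl17, Rps27a, Rpl21 and Rps27rt varied without following genotype. Rpl17, a large subunit protein at the tunnel exit, was at 149, 73.8, 77.7 and 62.0 CPM in WT, at 57.2, 40.4, 142 and 160 CPM in C3 KO and at 77.9, 135, 146 and 91.4 CPM in S1pr1 KO. Its copy Rpl17-ps10 was high where Rpl17 was low, at 91.7, 162, 160 and 199 CPM in WT, at 163, 158, 73.1 and 58.8 CPM in C3 KO and at 140, 70.3, 70.0 and 120 CPM in S1pr1 KO. Rpl17-ps3, a further copy, held steadier at 49.3 to 68.7 CPM and passed in S1pr1 KO against WT (-0.32, SE 0.063, edgeR adjusted p = 0.0378).

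Rps27a encodes a fusion of ubiquitin with a small subunit protein. Its WT libraries had 183, 172, 169 and 99.3 CPM, C3 KO 1 to 4 had 83.8, 130, 148 and 224, and S1pr1 KO 1 to 4 had 222, 81.1, 98.6 and 94.4 CPM. High and low libraries occurred in every genotype (S1pr1 KO against WT -0.33, SE 0.34, edgeR adjusted p = 0.671). Rpl21 was at 108, 101, 144 and 84.8 CPM in WT, 75.4, 81.5, 61.3 and 120 CPM in C3 KO and 162, 81.3, 84.4 and 102 CPM in S1pr1 KO, with all groups overlapping. Rps27rt, an intron-less relative of Rps27, ranged 2.42-fold, and the sum of Rps27 and Rps27rt went from 185 to 223 CPM. WT 3 had the highest Rps27rt of its group (69.6 CPM) and the lowest Rps27 (142 CPM, the other WT libraries 161 to 182).

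In S1pr1 KO against C3 KO, 0 of 81 members were called by edgeR, with 0.0% of all genes called. DESeq2 called 2 members among 293 genes called in all, and limma voom 1 among 36. With edgeR, 3 members had an unadjusted p under 0.05, where 12% of all genes did. None of the 3 was lower, where 5.46% of all genes were. Below 0 were 22 members and above it 59, with a median of 0.031 (all genes 49.3% below 0, median 0.0031). No member separated the groups in either direction, against 2.84% of all genes lower and 3.55% higher. The lowest p belonged to Rpl34 (0.72, SE 0.19, edgeR adjusted p = 0.224), Rpl29 (0.73, SE 0.21, 0.250) and Rpl30 (0.60, SE 0.17, 0.258). Rps10 followed with 0.45 (0.466) and Rplp0 with 0.20 (0.508). With copies summed, Rps10 stood at -0.053.

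Other genes of the translation machinery were taken from lists chosen by function, and their counts are descriptions. The lists share some genes, Eif3f and Npm1 among them, so the counts of different lists are not independent. Of 5 ribosomal protein genes that the naming rule leaves out, 5 were below 0 in C3 KO against WT and 4 in S1pr1 KO against WT. Rack1, a scaffold on the small subunit, was at 466 to 483 CPM in WT, 398 to 434 in C3 KO and 412 to 439 in S1pr1 KO, with both knockouts below WT in every library (-0.17 and -0.15, edgeR adjusted p = 0.305 and 0.129). Rps3a1 was at 318 to 340 CPM in WT and 283 to 312 in C3 KO but at 113, 111, 497 and 307 CPM in S1pr1 KO 1 to 4.

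Of 17 elongation factors and other genes with a TOP sequence, 16 were below 0 in C3 KO against WT (median -0.14) and 15 in S1pr1 KO against WT (median -0.11). Eef1g, a subunit of the factor that reloads Eef1a1 with GTP, fell in S1pr1 KO. Its level was 266, 268, 258 and 265 CPM in WT, 233, 231, 231 and 212 CPM in C3 KO and 229, 229, 229 and 218 CPM in S1pr1 KO, so both knockouts lay below WT. Its log2 fold change was -0.22 (SE 0.048) in both, with an edgeR adjusted p of 0.0458 in S1pr1 KO and 0.242 in C3 KO. Among 31 initiation factors 25 and 23 were below 0 and 0 passed. The lowest p in C3 KO belonged to Eif3d (-0.21, edgeR adjusted p = 0.254) and Eif3f (-0.29, 0.272), both of the scaffold that loads messengers onto the small subunit.

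Genes of ribosome assembly did not pass in either knockout. Of 63 tested genes for ribosomal RNA synthesis and ribosome assembly, 47 were below 0 in C3 KO against WT (median -0.055) and 30 in S1pr1 KO against WT (median 0.014), with 0 called in either; the difference between these counts was not tested. Polr1a, the catalytic subunit of RNA polymerase I, had 0.21 in C3 KO (SE 0.069, edgeR adjusted p = 0.337). Of 77 tested proteins of the mitochondrial ribosome, 58 and 34 were below 0 (medians -0.049 and 0.013), and 0 passed. Of 24 genes that control ribosome production, such as Mtor, Larp1 and Myc, 11 and 12 were below 0 and 0 passed. The lowest p there belonged to Rictor in C3 KO (0.29, SE 0.072, edgeR adjusted p = 0.272) and Tial1 in S1pr1 KO (-0.16, SE 0.048, 0.101).

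Among 13 tested host genes of small nucleolar RNAs, Gas5 rose in S1pr1 KO against WT. Gas5 is a non-coding RNA with a TOP sequence, spliced around the small nucleolar RNAs it carries. WT 1 to 4 had 36.8, 35.3, 32.4 and 35.4 CPM of Gas5, C3 KO 1 to 4 had 55.6, 57.0, 55.0 and 35.2 CPM, and S1pr1 KO 1 to 4 had 56.4, 56.7, 63.1 and 55.9 CPM. The library labelled C3 KO 4 sat with WT and the other C3 KO libraries with S1pr1 KO. The log2 fold change was 0.73 (SE 0.13, edgeR adjusted p = 0.0251) in S1pr1 KO and 0.53 (SE 0.13, edgeR adjusted p = 0.254) in C3 KO.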

How the data were processed

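The deposited count table held whole-number read counts per gene in 12 libraries, none pooled, and the deposited FPKM table scaled them by listed gene length and an effective library size. The submitters' processing notes name CASAVA, STAR and the builds GRCm39 and mm39. Not given in the sources used here are the counting tool, its strand setting and its handling of reads that fit several places. Members with near-identical or overlapping copies are therefore uncertain.

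Counts were filtered with filterByExpr (20229 of 56748 genes kept), scaled by TMM and tested in edgeR 4.0.16 (R 4.3.3) by quasi-likelihood, with a mean per genotype, 9 residual degrees of freedom and Benjamini-Hochberg adjustment over all genes at 0.05. The SE was back-calculated from the F statistic, and the fit was tested on simulated data. Members, lists, alternatives and the rule for named genes were chosen with earlier results of these data known. The rule took paralogues and partners, stalk proteins and Rpsa, called members and the 5 of lowest p per comparison, the 5 highest and 5 lowest in FPKM, the 5 of widest range, and from each related list the called genes and the 2 of lowest p. Shared 50-base stretches were counted over GENCODE M21 transcripts by gene ID. Gene coordinates are the files' (GRCm39).

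Alternatives were DESeq2 1.42.0, limma 3.58.1 (voom with quality weights, and log2 FPKM with a pseudocount of 1 or 0.1 where 4 libraries reached 0.5 FPKM), other scaling and low-count filters, a robust fit, fits of 2 groups, and fits without single libraries. Copies were summed with members in a fit chosen after seeing the data. Some genes that entered the fits and counts are not reported here by name and are not drawn.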

Additional observations from a re-analysis of the deposited data

Results flagged for a closer look

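Of 90 groups of 4 libraries checked (members and the share of counts), 8 had a library far from the other 3 by Dixon's test at 95%. Chance passes that limit in about 1 of 20 groups. The members checked included those named for a wide range or a low p, so this rate is no baseline for the 8. In WT, Rps27a was at 99.3 CPM in WT 4 and at 169 to 183 CPM in the others, and Rps27rt was at 69.6 CPM in WT 3 and 37.7 to 41.5 CPM in the others. In C3 KO, C3 KO 1 stood apart for Rpl29 (144 CPM, the others 65.4 to 70.6) and for Rpl34 (160 CPM, the others 75.6 to 82.6).

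In S1pr1 KO, Rpl30 was at 167 CPM in S1pr1 KO 4 and 128 to 134 CPM in the others, and Rps27a was at 222 CPM in S1pr1 KO 1 and 81.1 to 98.6 CPM in the others. The library labelled S1pr1 KO 2 stood apart for 2 values: Rpl7l1, a nucleolar relative of Rpl7, was at 67.9 CPM there (the others 59.6 to 60.4), and the members' share of counts was 2.01% (the others 2.21% to 2.24%).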

How the results depend on the processing

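Medians of the members kept their sign in C3 KO against WT (-0.16 to -0.12) and S1pr1 KO against WT (-0.14 to -0.10) under every alternative run. Members called in C3 KO against WT numbered 7 with DESeq2 and 0 without any single library, and genes called 155 with DESeq2, 21 with voom, 7 and 8 with log2(FPKM + 1) and log2(FPKM + 0.1), 1 with only the 2 groups, 31 without both libraries whose targeted gene went against the label, and 1 to 32 without single libraries. In S1pr1 KO against WT, members called numbered 19 with DESeq2, 7 with voom, 0 with log2(FPKM + 0.1), 5 with only the 2 groups and 0 to 6 without single libraries, and genes called 1224, 928, 162 and 129 with DESeq2, voom and both FPKM settings, 473 without both libraries and 2 to 571 without single libraries. In S1pr1 KO against C3 KO, members called numbered 2 with DESeq2, 1 with voom, 1 without both libraries and 0 to 2 without single libraries, and genes called 293, 36, 7 and 2 with those 4 tests, 15 with no filter, 3 without both libraries and 0 to 13 without single libraries; members above 0 numbered 36 to 67 and the median was -0.0029 to 0.048. With copies summed, 2 and 5 members were above 0 in C3 KO and S1pr1 KO against WT. In S1pr1 KO against WT signs turned for Rpl30 (-0.029), Rpl34 (-0.030), Rplp0 (-0.093), Rps7 (-0.12), Rps10 (-0.18), Rpl17 (-0.22) and Rpl7a (-0.057). In C3 KO against WT they turned for Rpl30 (-0.13), Rplp0 (-0.12), Rpl34 (-0.13), Rpl17 (-0.21), Rps2 (-0.016) and Rps7 (-0.13). In S1pr1 KO against C3 KO they turned for Rps10 (-0.053), Rpl17 (-0.0080), Rpl36a (-0.0025) and Rps28 (0.013). The causes of these differences between settings were not tested. Rpl10l had no count to test, Rpl39l did not pass the filter of the main fit, and Rpl3l had few counts. No paired analysis was possible because the labels number the libraries in a single series and pair none across genotypes.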
